A study of Mus musculus with 8 samples.

Results

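The genes described here are the enzymes and binding proteins that write, erase and read DNA methylation and histone marks, with the remodellers that move nucleosomes, in regulatory T cells (Tregs). Members were taken from a list of 38 named genes, through array probe sets annotated to exactly 1 gene symbol. Where a gene had several such probe sets, the brightest set, by its mean over the 8 arrays, was used. Of the 38, 37 were measured, out of 19937 genes on the array. Suv39h1, a methyltransferase of heterochromatin, was not analysed here.

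A pair of bone marrow chimeras was compared, with 4 arrays for each. In the IIKO chimeras (IIKO-CD3KO in the labels), lethally irradiated CD3ε-/- mice received marrow from IIKO donors, and in the WT chimeras (WT-CD3KO) the same kind of recipient received wild-type marrow. CD3ε belongs to the T cell receptor (TCR) and mice that lack it make no T cells of their own, so the cells studied came from the donor marrow, while radioresistant host cells carried the genotype of the recipient in both groups. The labels describe the IIKO chimera Tregs as cells whose TCR meets no MHC class II outside the thymus, and they name neither the class II gene disrupted nor the number of mice behind a sample. At day 28 after reconstitution, CD4+ TCRβ+ CD25+ cells were purified with beads and by sorting from peripheral lymph nodes and spleen. The labels give C57BL/6 mice of 6 to 8 weeks, and 100 ng of total RNA went onto each Affymetrix array. The values are log2 expression. Foxp3, the factor that defines Tregs, was at 10.68 ± 0.12 in IIKO and 10.63 ± 0.04 in WT chimeras (SD, n = 4 arrays each), and Cd3e, a T cell marker, at 11.87 ± 0.03 in IIKO and 11.90 ± 0.07 in WT chimeras. In bulk RNA, fewer cells of a kind and less transcript per cell cannot be told apart.

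DNA methylation in mammals sits mainly on CpG dinucleotides. DNMT3A and DNMT3B place it, DNMT1 with its recruiter UHRF1 copies it at replication, and TET dioxygenases start its removal. Polycomb complexes lay down repressive histone marks, acetyltransferases and deacetylases set the acetylation of histones and other proteins, and remodellers shift nucleosomes. In Tregs, stable Foxp3 expression is known to depend on demethylation of an intronic enhancer of Foxp3, to which TET proteins contribute, and EZH2 is known to support the Treg programme after activation.

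No chromatin regulator passed the test for a difference between IIKO and WT chimeras. By limma with Benjamini-Hochberg adjustment over all 19937 genes, 0 of the 37 members had an adjusted p under 0.05, against 0.286% of all genes. Kdm6b came closest (adjusted p = 0.0658). At an unadjusted limma p under 0.05, 4 members were higher in the IIKO chimeras (Kdm6b, Sirt1, Tet2 and Kdm6a), against 5.27% of all genes, and 0 were lower, against 12% of all genes. After a further quantile normalization, 3 members were higher and 3 lower at this threshold. Groups did not overlap for 3 members, against 10.5% of all genes. Kdm6b and Kdm6a had every IIKO array above every WT array, as 2.83% of all genes did, and Dnmt3a had every IIKO array below, as 7.69% did.

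The differences were small. Every one of the 37 confidence intervals (95%, limma) lay within 1.5-fold either way, and 20 lay within 1.2-fold. The widest reach was that of Bmi1, whose interval ended at 0.56 log2, or 1.47-fold. The members' differences ran from -0.24 to 0.30 with a median of 0.0358, and 25 lay above 0, against 37.1% of all genes. After a further quantile normalization the members' median was 0.0144 with 21 above 0, and with arrays centred on their medians it was 0.0542 with 28 above 0.

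**Figure D1:**
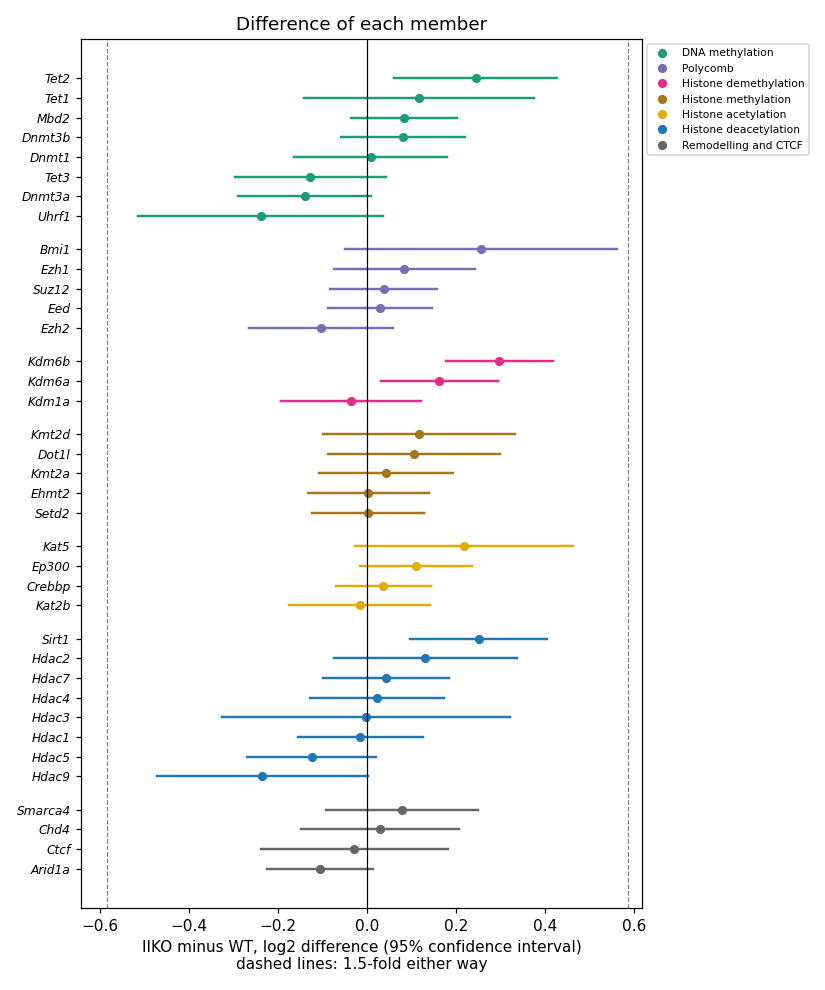
Differences between IIKO and WT chimeras (log2, points) with 95% confidence intervals (lines) for the 37 members, ordered by class and, within a class, by size. No interval reaches the dashed lines at 1.5-fold, and the intervals of 4 members, Kdm6b, Sirt1, Tet2 and Kdm6a, lie above 0.

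The members' counts stood near those of genes with similar levels. The median difference was -0.038 over all genes and 0.0114 over the brighter 9969. Among the 3914 genes between the quartiles of the members' own levels (8.51 and 10.5), the median was 0.0435 and 64.8% lay above 0, beside 67.6% of the members. An unadjusted p under 0.05 with a higher level in IIKO chimeras was found for 10.8% of the members and for 11.7% of these 3914 genes.

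**Figure D2:**
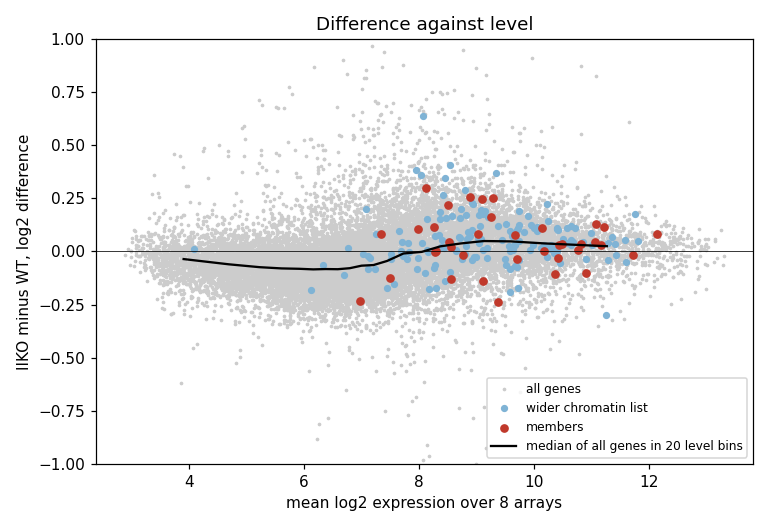
Difference between IIKO and WT chimeras (vertical, log2) against mean level over 8 arrays (horizontal, log2) for all genes (grey), 158 further chromatin genes (blue) and the 37 members (red). The black line, the median of all genes in 20 bins of level, passes through the members; 25 genes beyond 1 log2 either way are not drawn, none of them a member or a further chromatin gene.

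The demethylases of histone H3 that oppose Polycomb held the member with the lowest p. KDM6B (JMJD3) and KDM6A (UTX) remove the methyl groups that EZH2 places. Kdm6b was at 8.22, 8.28, 8.31 and 8.26 in the 4 IIKO arrays, against 8.04, 7.91, 7.92 and 8.01 in the WT arrays. The groups stood apart, and the gap between them was wider than the range within either group. The difference was 0.30 ± 0.05 log2 (SE), or 1.23-fold (95% interval 1.13 to 1.34), with a limma adjusted p of 0.0658 and place 77 among 19937 genes ordered by p. Kdm6a was at 9.33, 9.30, 9.30 and 9.37 in IIKO arrays, against 9.04, 9.27, 9.17 and 9.18 in WT arrays. The lowest IIKO array exceeded the highest WT array by little, and the difference was 0.16 ± 0.06 (limma adjusted p = 0.223). Kdm1a, the LSD1 demethylase of histone H3, was at 9.68 ± 0.09 in IIKO and 9.72 ± 0.11 in WT chimeras (SD, n = 4 arrays each), differing by -0.04 (adjusted p = 0.809).

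**Figure D3:**
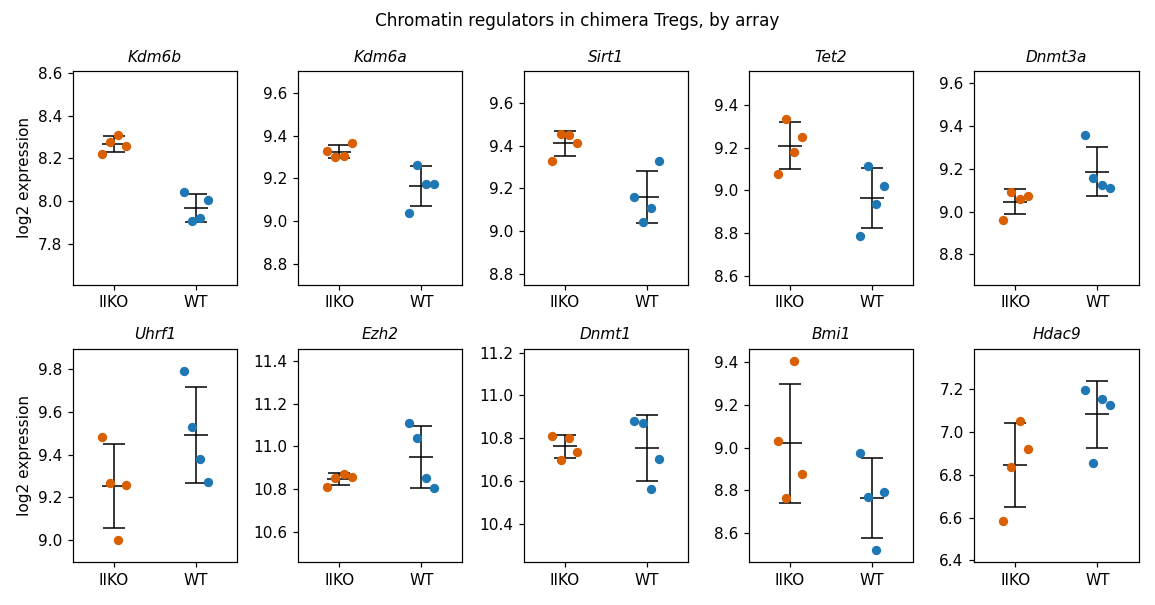
Log2 expression of 10 members in each array, IIKO chimeras left and WT chimeras right, with the mean and SD (n = 4 arrays each). Every panel spans 1 log2 unit; the IIKO points of Kdm6b, between 8.22 and 8.31, lie above the WT points, between 7.91 and 8.04, while the groups of Uhrf1, Ezh2, Dnmt1, Bmi1 and Hdac9 overlap.

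Sirt1 and Tet2 were the other members under an unadjusted p of 0.05. SIRT1 is an NAD-dependent deacetylase known to act on FOXP3 protein as well as on histones. Sirt1 was at 9.33, 9.46, 9.45 and 9.41 in IIKO arrays, against 9.16, 9.04, 9.11 and 9.33 in WT arrays. WT array 4 reached the level of IIKO array 1, and the other arrays did not overlap. The difference was 0.25 ± 0.07 (SE; limma adjusted p = 0.167). Tet2 was at 9.08, 9.33, 9.18 and 9.25 in IIKO arrays, against 8.79, 9.12, 8.94 and 9.02 in WT arrays. Here IIKO array 1 lay below WT array 2, and the difference was 0.24 ± 0.08 (adjusted p = 0.206).

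Promoters of both Kdm6a and Sirt1 held the palindrome CACGTG, the E-box read by several basic helix-loop-helix factors. Those of Kdm6a and Sirt1 are shown because they belong to members with a low unadjusted p and hold a searched motif. Kdm6b had no entry in the table used, and the promoter of Tet2 held none of the motifs searched. Each window runs from 250 bases before to 50 after the RefSeq start (GRCm38.p6), chrX:18162325-18162624 on the plus strand for Kdm6a and chr10:63338986-63339285 on the minus strand for Sirt1, with CACGTG in capitals.
Kdm6a: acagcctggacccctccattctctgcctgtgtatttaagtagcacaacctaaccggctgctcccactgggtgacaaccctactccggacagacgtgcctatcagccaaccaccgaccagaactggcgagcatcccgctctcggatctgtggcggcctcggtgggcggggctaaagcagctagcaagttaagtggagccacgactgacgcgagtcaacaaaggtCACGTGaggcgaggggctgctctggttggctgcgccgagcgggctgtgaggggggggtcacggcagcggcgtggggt
Sirt1: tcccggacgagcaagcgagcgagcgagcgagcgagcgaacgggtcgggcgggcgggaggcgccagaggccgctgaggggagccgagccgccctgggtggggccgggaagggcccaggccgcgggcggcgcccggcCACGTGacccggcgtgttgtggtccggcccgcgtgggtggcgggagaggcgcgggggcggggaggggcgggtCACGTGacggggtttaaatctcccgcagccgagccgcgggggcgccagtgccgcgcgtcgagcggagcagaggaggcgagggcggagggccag
The motif occurs 1 time in the Kdm6a window and 2 times in the Sirt1 window. Its letters were present in 8 of 49 member promoters (16.3%) and in 7.15% of the 32851 promoters in the table. The other member promoters with it were those of Bmi1, Dnmt3a, Ehmt2, Hdac5 and Kat5. Differences of these genes ran both ways: -0.14 for Dnmt3a, -0.12 for Hdac5, 0.0023 for Ehmt2, 0.22 for Kat5 and 0.26 for Bmi1. The motifs were searched on both strands, with overlaps counted, and chosen with the sequences and expression values in view: CACGTG, TTTNNCGC (E2F), TGANTCA (AP-1), TTCNNNGAA (STAT) and TGACGTCA (the cyclic AMP element). TGANTCA was in 6.12% of member promoters and 7.81% of all, TTCNNNGAA in 6.12% of member promoters and 8.3% of all, and TGACGTCA in 0 of 49 member promoters and 1.79% of all. A match is a description of the letters, not of binding. CACGTG holds a CpG, and member promoters had a median of 29 CpG per window, against 7 over all promoters. The shares were not compared at a like CpG content.

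The genes that place, keep and read DNA methylation differed in both directions, none past the test. Dnmt3a, a de novo methyltransferase, was at 8.96, 9.09, 9.06 and 9.07 in IIKO arrays, against 9.36, 9.16, 9.12 and 9.11 in WT arrays. Although the groups did not overlap, WT array 1 stood above the other WT arrays, and the difference of -0.14 ± 0.07 (SE) had a limma adjusted p of 0.312. Dnmt3b, the other de novo enzyme, was at 7.38 ± 0.09 in IIKO and 7.30 ± 0.06 in WT chimeras (SD, n = 4 arrays each), differing by 0.08 (adjusted p = 0.512). Uhrf1, which reads hemimethylated DNA and brings DNMT1 to it, was at 9.48, 9.27, 9.001 and 9.26 in IIKO arrays, against 9.79, 9.53, 9.38 and 9.27 in WT arrays. It had the most negative difference of any member, -0.24 ± 0.12 (adjusted p = 0.341), with groups that overlap. Dnmt1, the maintenance enzyme, was at 10.81, 10.70, 10.80 and 10.74 in IIKO arrays, against 10.88, 10.87, 10.56 and 10.70 in WT arrays. Its WT arrays reached both above and below all IIKO arrays, and the difference was 0.01, with a 95% interval of -0.16 to 0.18. Mbd2, a reader of methylated CpG known to act at the Foxp3 locus, was at 12.19 ± 0.06 in IIKO and 12.10 ± 0.04 in WT chimeras, a difference of 0.08 (adjusted p = 0.431).

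Of the TET enzymes, Tet2 lay higher in IIKO chimeras as given above, Tet1 was at 8.31 ± 0.03 in IIKO and 8.19 ± 0.28 in WT chimeras, and Tet3 at 8.49 ± 0.10 in IIKO and 8.62 ± 0.12 in WT chimeras (SD, n = 4 arrays each). Tet1 differed by 0.12 (limma adjusted p = 0.619) and Tet3 by -0.13 (adjusted p = 0.399). The other probe sets of Tet1 differed by 0.097 and 0.272, in the same direction, and the other of Tet3 by -0.00365.

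Of the 5 Polycomb genes, 0 passed the test, beside 0.286% of all genes. Above 0 lay 4 of the 5, beside 64.8% of the 3914 genes at the members' levels. EZH2 and EZH1 are the alternative methyltransferases of Polycomb repressive complex PRC2, and SUZ12 and EED are its core partners. Ezh2 was at 10.81, 10.85, 10.87 and 10.86 in IIKO arrays, against 11.11, 11.04, 10.85 and 10.81 in WT arrays. The IIKO arrays lay close together, and WT arrays 1 and 2 stood above them while WT arrays 3 and 4 did not (difference -0.10 ± 0.07 SE, limma adjusted p = 0.470). Ezh1 was at 9.07 ± 0.10 in IIKO and 8.98 ± 0.10 in WT chimeras (SD, n = 4 arrays each), differing by 0.08 (adjusted p = 0.551). Suz12, at 10.50 ± 0.04 in IIKO and 10.46 ± 0.06 in WT chimeras, and Eed, at 10.44 ± 0.04 in IIKO and 10.42 ± 0.05 in WT chimeras, differed by 0.04 and 0.03 (adjusted p = 0.744 and 0.797). The other probe set of Eed differed by -0.32, at a low level of 5.20 in IIKO and 5.52 in WT chimeras, below the lower quartile of all genes (6.04). Bmi1, a subunit of the other Polycomb complex, PRC1, varied more, with 9.03, 8.77, 9.41 and 8.88 in IIKO arrays, against 8.98, 8.77, 8.52 and 8.79 in WT arrays. Its difference of 0.26 ± 0.14 (adjusted p = 0.355) stood within the spread of its arrays.

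Uhrf1 and Ezh2, whose WT arrays were uneven, belong with genes that dividing cells express strongly, so cell-cycle transcripts are given beside them. The mean of 24 cell-cycle genes was 9.50, 9.44, 9.38 and 9.42 in IIKO arrays 1 to 4, against 9.67, 9.56, 9.42 and 9.35 in WT arrays 1 to 4. In both groups the arrays fell in the same order for Uhrf1 as for this mean. For Ezh2 the 2 WT arrays with the highest cell-cycle means were also the highest, but the IIKO arrays ran in the opposite order. For Dnmt1, WT arrays 1 and 2 were again the highest. Of the 24 genes, 0 passed limma's test and 3 were lower at an unadjusted p under 0.05 (12.5%), beside 12% of all genes and 7.42% of the brighter 9969. The list's median difference was -0.0791, with 17 of 24 genes at or below 0. Above 0 lay 29.2% of the list, beside 37.1% of all genes and 53.6% of the brighter 9969. The 3 genes, named after their values were seen, were Aurkb, a mitotic kinase (-0.29), Birc5, its partner survivin (-0.20, with every IIKO array below every WT array), and Ccna2, cyclin A2 (-0.19), with limma adjusted p of 0.245, 0.178 and 0.259. Mki67 was at 10.30 ± 0.06 in IIKO and 10.27 ± 0.11 in WT chimeras, and Top2a at 11.13 ± 0.04 in IIKO and 11.13 ± 0.15 in WT chimeras (SD, n = 4 arrays each). The part of cell division in the values of these members was not tested.

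**Figure D4:**
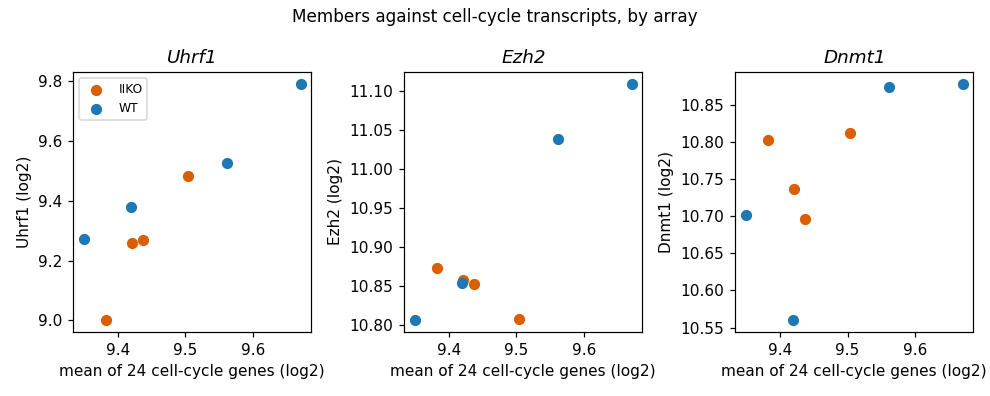
Log2 expression of Uhrf1, Ezh2 and Dnmt1 (vertical) against the mean of 24 cell-cycle genes (horizontal, log2), with 1 point for each array, IIKO in orange and WT in blue. WT arrays 1 and 2, with cell-cycle means of 9.67 and 9.56, hold the highest values of all 3 genes.

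Promoters of Uhrf1, Dnmt1 and Ezh2 held the E2F motif TTTNNCGC, read by factors that switch on genes for DNA replication. They are shown because these 3 genes, set beside the cell-cycle transcripts above, had their highest levels in WT arrays 1 and 2 and hold the motif. Tet1, Dnmt3a and Hdac1 also had their highest levels in those arrays. The windows of Tet1 and Dnmt3a hold no match, and Hdac1 had no window. The windows (GRCm38.p6) are chr17:56303087-56303386 and chr17:56304063-56304362 on the plus strand for the 2 starts of Uhrf1, chr9:20952574-20952873 on the minus strand for Dnmt1 and chr6:47594981-47595280 on the minus strand for Ezh2, with the motif on either strand in capitals.
Uhrf1 first start: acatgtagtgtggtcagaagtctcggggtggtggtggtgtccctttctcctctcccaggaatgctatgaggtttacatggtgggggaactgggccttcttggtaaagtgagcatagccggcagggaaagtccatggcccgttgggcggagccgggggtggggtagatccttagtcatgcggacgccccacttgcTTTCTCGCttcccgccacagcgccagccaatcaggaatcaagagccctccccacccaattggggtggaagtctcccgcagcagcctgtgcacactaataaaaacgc
Uhrf1 second start: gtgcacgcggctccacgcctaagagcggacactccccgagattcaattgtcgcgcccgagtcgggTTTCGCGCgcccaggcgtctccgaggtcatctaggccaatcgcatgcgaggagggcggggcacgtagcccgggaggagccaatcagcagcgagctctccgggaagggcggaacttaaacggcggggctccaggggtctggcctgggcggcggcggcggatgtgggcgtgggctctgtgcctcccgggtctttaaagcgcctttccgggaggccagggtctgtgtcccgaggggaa
Dnmt1: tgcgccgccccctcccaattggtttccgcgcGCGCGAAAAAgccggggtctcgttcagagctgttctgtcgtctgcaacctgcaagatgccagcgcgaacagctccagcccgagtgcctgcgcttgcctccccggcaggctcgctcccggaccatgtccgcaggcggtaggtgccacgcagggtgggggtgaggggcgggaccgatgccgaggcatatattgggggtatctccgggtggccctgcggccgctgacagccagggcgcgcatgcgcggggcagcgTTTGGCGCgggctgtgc
Ezh2: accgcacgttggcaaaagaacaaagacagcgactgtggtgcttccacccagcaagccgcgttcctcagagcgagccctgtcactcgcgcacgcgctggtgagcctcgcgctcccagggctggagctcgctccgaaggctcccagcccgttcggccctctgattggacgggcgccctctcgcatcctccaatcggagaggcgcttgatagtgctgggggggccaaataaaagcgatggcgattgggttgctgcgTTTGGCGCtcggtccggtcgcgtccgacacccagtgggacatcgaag
In the Dnmt1 window 2 of the 3 matches overlap, and the other 2 starts of Dnmt1 in the table hold none. The motif was in 8 of 49 member promoters (16.3%) and in 5.17% of all promoters. The others were those of Arid1a, Ep300, Suz12 and Suv39h1. Arid1a, Ep300 and Suz12 did not have their highest levels in WT arrays 1 and 2, and Suv39h1 was not analysed. Promoters of the members were rich in CpG, with a median of 29 per window, against 7 over all promoters. TTTNNCGC, CACGTG and TGACGTCA each hold a CpG, and motif shares at a like CpG content were not computed. Each start was counted, so a gene with several starts can enter a share more often. The range was wide, from 0 at 1 start of Hdac9 to 57 for Tet2. RefSeq windows were found for 34 of the 38 listed genes.

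Of the histone methyltransferases, 0 of 5 measured members had an unadjusted limma p under 0.05, beside 17.3% of all genes. A count of 0 among so few genes says little. All 5 lay above 0, beside 64.8% of the 3914 genes at the members' levels. Ehmt2 (G9a), a methyltransferase of histone H3, was at 8.34, 8.38, 8.29 and 8.16 in IIKO arrays, against 8.30, 8.33, 8.30 and 8.22 in WT arrays. The difference was 0.0023, with a 95% interval of -0.13 to 0.14, and the WT range lay inside the IIKO range. Ehmt2 lies on chromosome 17 within 10 Mb of H2-Ab1, a class II gene, where 12 of 445 tested genes passed limma's adjusted threshold. Kmt2a (MLL1) was at 11.08 ± 0.06 in IIKO and 11.03 ± 0.11 in WT chimeras, and Kmt2d at 11.28 ± 0.06 in IIKO and 11.16 ± 0.21 in WT chimeras (SD, n = 4 arrays each). These methyltransferases of promoters and enhancers differed by 0.04 and 0.12 (limma adjusted p = 0.764 and 0.544), and the other probe set of Kmt2d differed by 0.106. Setd2, which marks transcribed gene bodies, was at 10.17 ± 0.07 in IIKO and 10.17 ± 0.05 in WT chimeras, a difference of 0.0019 (adjusted p = 0.991), while its other probe set differed by 0.16. Dot1l, the methyltransferase of the histone core, was at 8.03 ± 0.14 in IIKO and 7.92 ± 0.13 in WT chimeras, a difference of 0.11 (adjusted p = 0.538).

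Of the 4 histone acetyltransferases, 3 lay above 0, beside 64.8% of the 3914 genes at the members' levels. The test was passed by 0 of the 4, beside 0.286% of all genes. Ep300, which encodes the coactivator p300, was at 10.13, 10.22, 10.16 and 10.23 in IIKO arrays, against 10.06, 10.08, 9.995 and 10.16 in WT arrays. WT array 4 alone reached into the IIKO range, and the difference was 0.11 ± 0.06 (SE; limma adjusted p = 0.339). Its paralog Crebbp was at 10.83 ± 0.03 in IIKO and 10.80 ± 0.02 in WT chimeras (SD, n = 4 arrays each), differing by 0.04 (adjusted p = 0.718). Kat5 (TIP60), known to acetylate FOXP3, was at 8.61 ± 0.17 in IIKO and 8.40 ± 0.19 in WT chimeras, a difference of 0.22 ± 0.11 (SE; adjusted p = 0.333). Kat2b (PCAF) was at 8.75 ± 0.08 in IIKO and 8.77 ± 0.12 in WT chimeras, a difference of -0.02 (adjusted p = 0.919).

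The histone deacetylases lay in both directions, with 4 of 8 above 0, beside 64.8% of the 3914 genes at the members' levels. Hdac1 was at 11.72 ± 0.05 in IIKO and 11.74 ± 0.10 in WT chimeras, and its paralog Hdac2 at 11.14 ± 0.18 in IIKO and 11.01 ± 0.11 in WT chimeras (SD, n = 4 arrays each). Limma adjusted p was 0.914 for Hdac1 (difference -0.02) and 0.478 for Hdac2 (difference 0.13). Hdac3, the enzyme of the NCoR corepressors, was at 8.27 ± 0.26 in IIKO and 8.28 ± 0.25 in WT chimeras. Its wide spread gave an interval of -0.33 to 0.32 around a difference of -0.0031. Class IIa deacetylases shuttle between nucleus and cytoplasm. Of these, Hdac9, whose loss in mice is known to raise Treg numbers and function, was at 6.58, 6.84, 7.05 and 6.92 in IIKO arrays, against 7.20, 6.85, 7.16 and 7.13 in WT arrays. WT array 2 fell among the IIKO arrays, and the difference was -0.24 ± 0.11 (SE; limma adjusted p = 0.291). Hdac7 was at 8.41, 8.53, 8.56 and 8.63 in IIKO arrays, against 8.43, 8.45, 8.50 and 8.59 in WT arrays, so the groups overlapped nearly in full (difference 0.04, adjusted p = 0.754). Hdac5 was at 7.44 ± 0.05 in IIKO and 7.56 ± 0.11 in WT chimeras, and Hdac4 at 8.56 ± 0.11 in IIKO and 8.54 ± 0.08 in WT chimeras. Their differences were -0.12 for Hdac5 (adjusted p = 0.344) and 0.02 for Hdac4 (adjusted p = 0.887). The other probe set of Hdac1 differed by -0.0982 and that of Hdac4 by -0.0779.

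Of the remodelling factors and CTCF, 0 of 4 had an unadjusted limma p under 0.05, beside 17.3% of all genes. Above 0 lay 2 of the 4, beside 64.8% of the 3914 genes at the members' levels. Smarca4 (BRG1), the ATPase of the BAF complex, was at 9.64, 9.73, 9.85 and 9.64 in IIKO arrays, against 9.82, 9.62, 9.54 and 9.57 in WT arrays. The groups overlapped, with a difference of 0.08 ± 0.08 (SE; limma adjusted p = 0.615). Arid1a, a DNA-binding subunit of the same complex, was at 10.31 ± 0.06 in IIKO and 10.42 ± 0.05 in WT chimeras (SD, n = 4 arrays each), differing by -0.11 ± 0.05 (SE; adjusted p = 0.331). Chd4, the ATPase of the NuRD complex, was at 11.18 ± 0.14 in IIKO and 11.15 ± 0.10 in WT chimeras, a difference of 0.03 (adjusted p = 0.874). Ctcf, which anchors chromatin loops, was at 10.50, 10.62, 10.13 and 10.35 in IIKO arrays, against 10.46, 10.44, 10.44 and 10.38 in WT arrays. Its WT arrays lay close together and its IIKO arrays spread on both sides of them (difference -0.03, adjusted p = 0.893).

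A wider list of the same machinery and related family members held 167 further genes, of which 158 were measured. By limma, 0 of the 158 passed the adjusted threshold (0.286% of all genes did), while 17 were higher (10.8%) and 3 lower (1.9%) with an unadjusted p below 0.05. The same threshold gave 5.27% higher and 12% lower over all genes, and 11.7% higher and 4.34% lower over the 3914 genes at the members' levels. The share of higher calls stood near that of these 3914 genes, which were not matched to the levels of the wider list itself. Their median difference was 0.0382, against 0.0435 for the genes at the members' levels. Sirt4, a mitochondrial sirtuin, had the largest difference, with 8.29, 8.47, 8.46 and 8.30 in IIKO arrays, against 7.88, 7.99, 7.35 and 7.75 in WT arrays. The groups stood apart, with WT array 3 lowest (0.64 ± 0.12 SE, limma adjusted p = 0.0821). Dpy30, a core subunit of the KMT2 complexes on chromosome 17, was at 11.07, 11.18, 11.09 and 11.11 in IIKO arrays, against 11.39, 11.52, 11.41 and 11.32 in WT arrays. The groups again stood apart, with IIKO lower (-0.30 ± 0.06 SE, adjusted p = 0.0847). Across 15 alternatives the limma adjusted p of Dpy30 ran from 0.038 to 0.222. It passed in 1 of them, a fit with a variance trend and robust moderation. Dpy30 does not lie within 10 Mb of H2-Ab1.

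Of the other named genes of this list, Gadd45a, a stress gene tied to DNA demethylation, differed by 0.26, Pcgf3 and Pcgf6, which define variant PRC1 complexes, by 0.40 and 0.29, Setdb2, a histone methyltransferase, by 0.35, and Sap30, a subunit of the SIN3 deacetylase complex, by 0.37. Dnmt3l, a cofactor of the de novo methyltransferases without catalytic activity, differed by -0.18 at a level of 6.02 in IIKO and 6.21 in WT chimeras. Limma adjusted p values of these 6 genes lay between 0.165 and 0.178. Near H2-Ab1 on chromosome 17, Brd2, a reader of acetylated histones, differed by 0.12 ± 0.05 (SE; adjusted p = 0.282), and Ring1 by -0.02, Phf1 by -0.0051, Brpf3 by -0.01 and Daxx by 0.16.

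**Figure D5:**
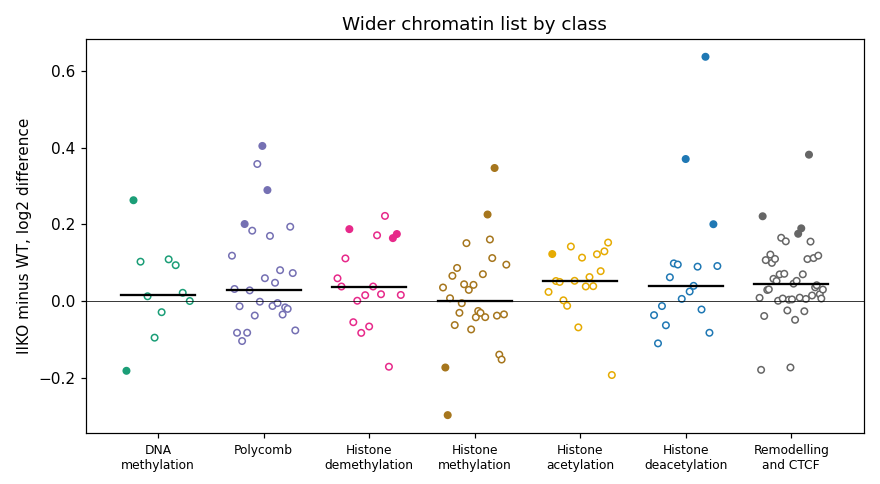
Difference between IIKO and WT chimeras (log2) of 158 further chromatin genes by class, with class medians as black lines. Filled points have an unadjusted limma p under 0.05: 17 higher (10.8%) and 3 lower (1.9%). These shares were 11.7% and 4.34% for genes at the members' levels, and 5.27% and 12% for all genes. Sirt4, a mitochondrial sirtuin listed with the deacetylases, is the highest point, at 0.64, and Dpy30, at -0.30, the lowest.

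The spread of the members between arrays was a little smaller in the IIKO group, as it was for genes of similar level. The median SD over the 37 members was 0.0813 in IIKO and 0.11 in WT chimeras, against 0.105 in IIKO and 0.118 in WT chimeras over the 3914 genes at the members' levels, and 0.0976 in IIKO and 0.0977 in WT chimeras over all genes. This difference in spread was not tested. For markers of other cells, the ranges of the list means overlapped and 0 genes passed the adjusted threshold. The mean of 9 B and plasma cell markers ran from 5.77 to 5.85 in IIKO arrays and from 5.73 to 5.94 in WT arrays. That of 13 myeloid markers ran from 6.55 to 6.96 in IIKO arrays and from 6.59 to 6.87 in WT arrays. The mean of 9 NK and CD8 markers ran from 7.56 to 7.74 in IIKO arrays and from 7.59 to 7.78 in WT arrays. Among these 9 genes, 3 (33.3%), Cd8a, Klrb1c and Nkg7, had every IIKO array below every WT array, as 7.69% of all genes did. Cd8a and Klrb1c, with means of 6.62 and 4.31 over all arrays, lay below the median gene level of 7.1. Another 3 of the 9 lay above 0, Klrd1 by 0.40, Gzmb by 0.14 and Prf1 by 0.008. Erythroid markers (4 measured of 8) averaged 6.45 to 6.66 in IIKO arrays and 6.58 to 6.84 in WT arrays, and 6 thymocyte markers 5.95 to 6.27 in IIKO arrays and 6.14 to 6.25 in WT arrays. Their part in the members' values was not tested. Of the 10 Treg markers, Lrrc32, which encodes the latent TGF-beta carrier GARP, was lower past the adjusted threshold, at 8.33 ± 0.24 in IIKO and 9.07 ± 0.15 in WT chimeras (SD, n = 4 arrays each; limma adjusted p = 0.0373). Il2ra, which encodes the sort marker CD25, differed by 0.17, Ctla4 by 0.12 and Cd4 by 0.13 (limma adjusted p = 0.211, 0.272 and 0.289). Every IIKO array lay above every WT array for 3 of the 10 (30%), Il2ra, Ctla4 and Ikzf2. This held for 2.83% of all genes and 4.95% of the brighter 9969. The reverse held for 1 of the 10 (10%), Lrrc32, as for 7.69% of all genes.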

How the data were processed

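Log2 values for each probe set were deposited by the authors, who name affy and RMA in the submitters' processing notes, without versions or settings in the sources used here. RMA normalizes arrays to common quantiles, so a shift shared by all genes cannot be seen, and background was not examined. Medians of the deposited arrays over all probe sets still ran from 6.96 to 7.03. Levels of different probe sets were compared only to group genes by signal. Of 34760 probe sets, 21640 had 1 symbol, 1321 several and 11799 none in the platform annotation; chromosomes came from RefSeq (GRCm38.p6), matched for 19855 of 19937 genes.

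Groups follow the samples' titles. All genes were fitted together with limma 3.58.1 under R 4.3.3 (IIKO minus WT, lmFit followed by eBayes, 6 residual degrees of freedom, two-sided, Benjamini-Hochberg over all genes, threshold 0.05). The fit was tested on simulated data, with planted differences larger than that of any member. Its power to find differences of the members' sizes was not examined. The labels call the arrays biological replicates, so p-values reflect only how these samples vary. The 4 arrays of a group limit the precision of every value. No 2 arrays were alike: the smallest SD of a difference between arrays was 0.185.

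The members and gene lists were chosen with earlier results of these data known, and no list was tested as a set. Values of every array are given for members with an unadjusted p under 0.05 or groups that do not overlap and for Dnmt1, Dnmt3a, Uhrf1, Tet2, Ezh2, Kdm6b, Ehmt2, Hdac7, Hdac9, Ep300, Smarca4 and Ctcf, and, chosen after their values were seen, Bmi1, Sirt4 and Dpy30. Of the wider list, the 8 genes with the smallest p and those within 10 Mb of H2-Ab1 are named. Alternatives covered the threshold, a replicate block, further quantile normalization, median centring, brighter genes only, array weights, moderation with trend and robust variance, averaged probe sets and leaving out each array. Promoter motifs were searched in Python. Python 3.11.15 with matplotlib 3.10.9 drew the figures.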

Additional observations from a re-analysis of the deposited data

Results flagged for a closer look

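In 104 groups of 4 arrays examined (the 37 members, the 8 named genes of the wider list and the 7 marker means, in each group), 1 array stood apart from the other 3 by Dixon's criterion in 9; chance sets about 1 in 20 apart. Among the members, Hdac1 was at 11.65 in IIKO array 4, against 11.74 to 11.75 in the other IIKO arrays, and Hdac4 at 8.72 in the same array, against 8.48 to 8.52. Tet3 was at 8.80 in WT array 4 (8.54 to 8.58 in the others) and Crebbp at 10.83 in WT array 3 (10.78 to 10.79). In the wider list, Pcgf6 was at 8.79 in IIKO array 1 (8.98 to 9.01) and Gadd45a at 8.12 in WT array 4 (8.32 to 8.36). The erythroid marker mean was 6.45 in IIKO array 1 (6.64 to 6.66), the B and plasma cell marker mean 5.73 in WT array 2 (5.91 to 5.94) and the NK and CD8 marker mean 7.59 in WT array 4 (7.76 to 7.78).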

How the results depend on the processing

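Across 15 alternatives, 0 of the 37 members passed limma's adjusted threshold in any, with a lowest adjusted p of 0.0571. The members' median difference was 0.0358, against 0.0144 after further quantile normalization and 0.0542 with arrays centred on their medians, and lay between 0.0299 and 0.0432 without each array in turn. Of the members, 26 kept 1 sign in all alternatives while 11 did not. Sirt1, Tet2 and Kdm6b had an unadjusted p under 0.05 in every one. A threshold of 0.01 gave 21 genes in place of 57 over all genes, 2 members higher in place of 4 and 6 of the wider list higher in place of 17. Further quantile normalization gave 3 members higher in place of 4 and 3 lower in place of 0. In the wider list it gave 10 higher in place of 17 and 5 lower in place of 3. The wider list median difference was then 0.00948 in place of 0.0382. Moderation with trend and robust variance gave 1 member lower and 1 gene of the wider list past the adjusted threshold (Dpy30), and array weights gave 1 member lower. Without each array in turn, all genes called ran from 32 to 50, members higher from 4 to 5, members lower from 0 to 2, members above 0 from 22 to 27, the wider list higher from 11 to 19 and lower from 2 to 5, and the wider median from 0.0244 to 0.0475. Same-numbered arrays did not deviate together (correlations of deviations 0.0449, -0.0147, -0.0679 and 0.22; 1 of 4 arrays correlated best with its own number), so the numbers were not taken as pairs; a replicate block gave 31 genes over all genes, 1 member lower and 5 of the wider list lower. Signs of differences near 0 turned with the scaling. They were Dnmt1 -0.0137, Setd2 -0.0318, Ehmt2 -0.037, Hdac4 -0.0143 and Mki67 -0.000683 after further quantile normalization, and Kat2b 0.00146, Hdac1 0.00264, Hdac3 0.0153, Phf1 0.0133, Brpf3 0.0063 and Top2a 0.0158 with arrays centred. Array weights gave Setd2 -0.00538 and Phf1 0.00139, and the mean of probe sets Eed -0.145, Hdac4 -0.0281 and Top2a 0.00244. Without each array in turn the differences ran from -0.0566 to 0.0495 for Dnmt1, -0.0789 to 0.0123 for Kdm1a, -0.0236 to 0.0341 for Setd2, -0.0257 to 0.046 for Ehmt2, -0.0604 to 0.0299 for Kat2b, -0.0448 to 0.0254 for Hdac1, -0.123 to 0.11 for Hdac3, -0.0308 to 0.0557 for Hdac4, -0.014 to 0.0763 for Chd4, -0.104 to 0.0614 for Ctcf, -0.0738 to 0.0112 for Ring1, -0.0248 to 0.00889 for Phf1, -0.0322 to 0.0151 for Brpf3, -0.0236 to 0.0601 for Mki67 and -0.0472 to 0.0505 for Top2a. The cause of these turns was not tested. With 4 arrays a group, differences inside the intervals that hold 0 were not told from 0, and signal over background was not examined.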
